A study of Mus musculus with 12 samples.

Results

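The genes described here encode laminin chains and other components of the basement membrane in 4T1 cells, a mouse mammary carcinoma line. They are 9 of the 19937 genes that had a probe set carrying a single gene symbol on the array: the laminin chains Lama3, Lamb3, Lama4, Lama5, Lamb1 and Lamc1, the type IV collagen chains Col4a1 and Col4a2, and the nidogen Nid1. They were chosen by name, with earlier results of these data known, and each was read by 1 probe set.

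RNA was profiled in 12 samples on Affymetrix whole-transcript mouse gene arrays, 3 per line, from 4 stable 4T1 lines. The ΔSAP and mutB1 lines carry mutant constructs of Mkl1 (now Mrtfa), a coactivator that actin holds in check and that works with serum response factor. The SAP domain is thought to bind DNA, and the B1 region is known for its part in binding to serum response factor. The FL line carries the construct read here as full length, and the fourth line is the control. All lines share the BALB/cfC3H background given in the labels, and all were held for 48 h in 0.03% fetal calf serum before RNA extraction, with 100 ng of total RNA taken for each array. The labels give a single cell line name per construct, read here as 1 stable line each, so an effect of a construct and a property of a line cannot be told apart. The p-values rest on how far arrays of the same line lay apart, pooled over the 4 lines. That spread is drawn toward the spread over all probe sets. The sample titles number the replicates and do not say whether they were separate cultures.

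Basement membranes are thin sheets of matrix under epithelia and around vessels. Laminins are trimers of an α, a β and a γ chain that polymerise at the cell surface and bind integrins and dystroglycan. Type IV collagen forms a second network, and nidogen joins the networks. Lama3 and Lamb3 encode the α3 and β3 chains of laminin-332, the epithelial laminin that anchors hemidesmosomes through the integrin α6β4. Lama5, Lamb1 and Lamc1 encode the chains of laminin-511, widespread in epithelia, and Lama4 encodes the α4 chain of laminin-411, known from blood vessels and mesenchymal cells.

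Values are log2 intensities after robust multi-array averaging (RMA), so a difference of 1 is a change of 2-fold. A gene is said to have passed when its adjusted p in limma was at most 0.01 and its mean over the 12 arrays was at least 4. The study's own rule adds a fold of at least 2. The mean of Mrtfa was 11.92 in the ΔSAP line, 11.29 in mutB1 and 12.08 in FL, against 9.27 in control cells. Mrtfa was 0.79 lower in mutB1 than in FL (adjusted p = 2.79e-06), and the difference of -0.16 between ΔSAP and FL did not pass (adjusted p = 0.0776), so the mutB1 comparison also carries a lower Mrtfa signal, whose part in the results was not tested. Array medians lay between 6.35 and 6.46, and a mean below 6.35, the lowest of them, is called low here. That level was chosen after the values were seen. RMA gives no detection call, a low value may be background, and a fold against a low mean may understate the change. Levels are compared between lines and not between probe sets.

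The 9 genes followed several patterns over the lines. Lama3 and Lamb3 were higher in ΔSAP and FL cells than in mutB1 and control cells. Lama4 was high in mutB1 cells alone, with 8.09-fold the FL value. Lama5, Lamb1 and both type IV collagen chains were lowest in FL cells, by 1.49-fold or less against any line. Nid1 passed no comparison. Over the 4 lines 8 of the 9 genes passed the limma F test, against 38.6% of all genes, and Nid1 did not (adjusted p = 0.0385).

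**Figure D1:**
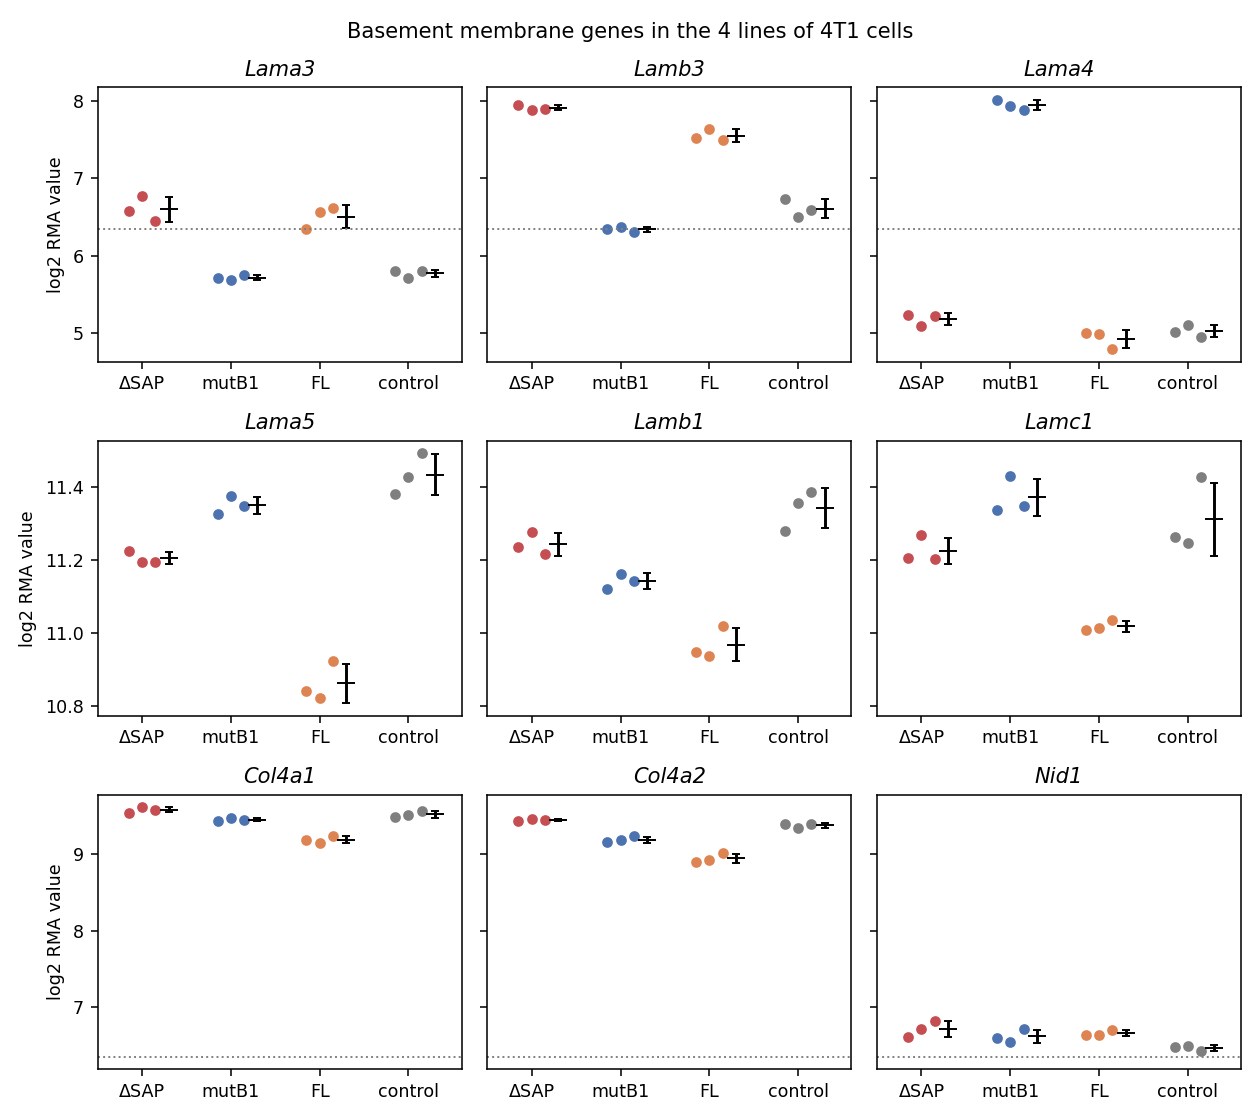
RMA log2 value (y axis) of each of the 9 genes on each array (points), by line (x axis), with the mean and SD of 3 arrays in black; the dotted line marks the low level of 6.35, and the y axis differs between rows of panels. Lama4 sits near 7.95 in mutB1 cells and between 4.80 and 5.24 in the other lines, and Lama5, Lamb1 and Lamc1 have their lowest values in FL cells.

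The measured laminin-332 chains were higher in ΔSAP and FL cells than in mutB1 and control cells. Lamb3, the β3 chain, read 7.95, 7.88 and 7.90 on the ΔSAP arrays, 6.35, 6.37 and 6.31 on the mutB1 arrays, 7.52, 7.64 and 7.50 on the FL arrays and 6.74, 6.50 and 6.60 on the control arrays. The ranges of the 4 lines did not overlap, with ΔSAP highest and mutB1 lowest. Lamb3 was 1.21 ± 0.06 (SE) lower in mutB1 than in FL, a 2.31-fold difference (limma adjusted p = 2.83e-07), and 0.36 ± 0.06 higher in ΔSAP than in FL (adjusted p = 0.00227). Against control cells it was 1.30 higher in ΔSAP, 2.46-fold (adjusted p = 1.92e-07), and 0.94 higher in FL, 1.92-fold (adjusted p = 1.22e-06). The mutB1 line was 0.27 lower than control cells, which did not pass (adjusted p = 0.0112). Thus the order was ΔSAP, FL, control and mutB1, and the last 2 were the only neighbours that the test did not separate. The difference between ΔSAP and FL did not pass without ΔSAP replicate 1, FL replicate 1 or FL replicate 3, with adjusted p up to 0.0122, or in a fit of only those lines (adjusted p = 0.0109). The difference between mutB1 and control cells passed without control replicate 2 (adjusted p = 0.00488), with array weights (adjusted p = 0.00802) and with genes of low mean removed before the adjustment (adjusted p = 0.00918). In mutB1 cells the mean of Lamb3, 6.35 ± 0.03 (SD, n = 3), stood at the low level without falling below it.

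Lama3, the α3 chain, read 6.58, 6.78 and 6.45 in ΔSAP cells, 5.72, 5.69 and 5.75 in mutB1 cells, 6.34, 6.57 and 6.62 in FL cells and 5.80, 5.72 and 5.80 in control cells. The ΔSAP and FL arrays overlapped each other, the mutB1 and control arrays overlapped each other, and the 2 pairs of lines were apart. It was 0.79 ± 0.09 lower in mutB1 than in FL, 1.73-fold (adjusted p = 7.54e-05), while ΔSAP and FL differed by 0.09 with a 95% interval from -0.10 to 0.29 (adjusted p = 0.574). Lama3 was 0.83 higher in ΔSAP and 0.73 higher in FL than in control cells (adjusted p = 6.77e-05 and 9.91e-05), and mutB1 minus control was -0.05 with an interval from -0.25 to 0.14 (adjusted p = 0.758). The means in mutB1 and control cells, 5.72 ± 0.03 and 5.77 ± 0.05 (SD, n = 3 each), were low. Those in ΔSAP and FL cells, 6.60 and 6.51, stood close above the low level of 6.35. Both laminin-332 chains were therefore higher in ΔSAP and in FL than in each of mutB1 and control, an order over lines noticed in these values and met by 2.58% of genes. Over the 12 arrays Lama3 and Lamb3 correlated at r = 0.96, where arrays of 1 line are not independent points.

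The RefSeq promoter table (GRCm38.p6) was matched by symbol and held windows for 6 of the 9 genes. A window runs from 250 bases before to 50 bases after a transcript's start base. Lama3, Lama4 and Lamc1 had none, so Lamb3 is the only laminin-332 chain that could be shown. Its first window lies on the plus strand at chr1:193301744-193302043, and none of its letters are in capitals because no searched motif occurred in it.
Lamb3: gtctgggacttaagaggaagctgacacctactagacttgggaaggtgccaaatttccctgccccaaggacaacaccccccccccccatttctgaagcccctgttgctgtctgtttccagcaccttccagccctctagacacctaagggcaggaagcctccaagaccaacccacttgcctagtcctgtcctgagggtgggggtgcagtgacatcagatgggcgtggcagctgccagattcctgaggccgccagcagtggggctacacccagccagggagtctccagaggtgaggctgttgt
The motifs searched, on both strands, were the GC box GGGCGG, the CCAAT box, the AP-1 motif TGANTCA, the TEAD motif CATTCC, the TATA box TATAAA and the CArG box, the motif of serum response factor. A further Lamb3 window, at chr1:193301993-193302292, held 1 CATTCC. A motif match describes letters and is not a binding site.

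Lama4 was the gene with the largest change in the set. Its α4 chain belongs to a laminin typical of vessels and mesenchymal cells. On the mutB1 arrays it read 8.02, 7.94 and 7.88. The ΔSAP arrays read 5.24, 5.10 and 5.23, the FL arrays 5.00, 5.00 and 4.80, and the control arrays 5.02, 5.11 and 4.96. Every mutB1 array was above every array of the other lines, and the means of the other lines were all low. Lama4 was 3.02 ± 0.07 higher in mutB1 than in FL (8.09-fold, adjusted p = 1.42e-09) and 2.91 higher than in control cells (7.54-fold, adjusted p = 1.36e-09). ΔSAP was 2.76 lower than mutB1 (6.76-fold, adjusted p = 1.76e-09). ΔSAP, control and FL followed mutB1 in that order, and no pair of those 3 passed: the differences were 0.26 for ΔSAP minus FL (adjusted p = 0.0278), 0.16 for ΔSAP minus control (adjusted p = 0.146) and -0.10 for FL minus control (adjusted p = 0.369). The first of these passed after further quantile normalization (0.29, adjusted p = 0.00693). Being higher in mutB1 than in each other line by at least 2-fold was met by 0.161% of genes, and Lama4 alone of the 9 genes met it. In RNA of a whole culture, a higher level in all cells and a larger share of cells with the transcript cannot be told apart.

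Markers of other cell types were read beside Lama4. Of 9 endothelial markers, 8 had a low mean in every line, and none passed between mutB1 and FL. The remaining marker, Flt1, averaged 9.75 in ΔSAP, 9.77 in mutB1, 9.84 in FL and 10.32 in control cells. Its differences from control cells, -0.56 in ΔSAP, -0.55 in mutB1 and -0.48 in FL, all passed. The mean of the 9 was 5.68 to 5.78 over the mutB1 arrays and 5.72 to 5.79 over the FL arrays. Of 7 pericyte markers, 6 were low in every line and none passed, with list means of 5.59 to 5.65 in mutB1 and 5.50 to 5.56 in FL. Of 7 fibroblast markers, 4 were low in mutB1 and 3 in FL. Pdgfra, a growth factor receptor of mesenchymal cells, was 1.49 higher in mutB1 than in FL (adjusted p = 6.13e-08). It was the only 1 of the 7 that passed between these lines, and Dcn was 0.29 lower without passing (adjusted p = 0.0372). The list mean, which includes Pdgfra, was 6.37 to 6.42 in mutB1 against 6.11 to 6.23 in FL. Control cells, where Lama4 was low, had a list mean of 6.34 to 6.46, and Pdgfra averaged 9.74 in ΔSAP, 10.87 in mutB1, 9.38 in FL and 10.76 in control cells. Pdgfra did not pass between mutB1 and control cells (0.11, adjusted p = 0.303). Of 6 measured leukocyte markers 6 were low in mutB1 and 5 in FL, and of 5 adipocyte markers 4 and 5, with none passing between these lines.

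Epithelial markers moved in the same comparison as Lama4 and the laminin-332 chains. The mean of 7 such markers was 10.43 to 10.46 over the ΔSAP arrays, 8.73 to 8.76 over the mutB1 arrays, 9.96 to 9.97 over the FL arrays and 9.88 to 9.92 over the control arrays. Between mutB1 and FL 4 of the 7 were lower and 1 was higher, against 12.1% and 12.8% of all genes. The keratins Krt7 and Krt19 were 2.46 and 2.24 lower, the adhesion protein Cdh1 2.23 lower and Epcam 1.86 lower. The keratin Krt8 was 0.16 higher (limma adjusted p = 0.00363), and Krt18 was 0.12 higher without passing (adjusted p = 0.0497). Between ΔSAP and FL 6 of 7 were higher and none lower (8.34% and 8.35% of all genes), with Epcam 1.88 higher. In FL 2 were higher and 2 lower than in control cells (12.5% and 14.9% of all genes). Against the epithelial label of 4T1 cells, 1 of the 7 markers was low in ΔSAP, FL and control cells and 2 were low in mutB1 cells. Of 7 basal or myoepithelial markers, 3 were lower and none higher in mutB1 than in FL, led by Krt17 at -1.42. Between ΔSAP and FL 1 was higher and 1 lower. The basal counts are read against the same shares of all genes. The part of these markers in the laminin differences was not tested.

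The chains of laminin-511 changed little. Lama5, the α5 chain, read 11.23, 11.20 and 11.20 in ΔSAP cells, 11.33, 11.38 and 11.35 in mutB1 cells, 10.84, 10.82 and 10.92 in FL cells and 11.38, 11.43 and 11.49 in control cells. No 2 lines overlapped, and FL was lowest. Lama5 was 0.34 ± 0.04 higher in ΔSAP (adjusted p = 0.000256) and 0.49 ± 0.04 higher in mutB1 (adjusted p = 1.09e-05) than in FL, and FL stood 0.57 lower than control cells (1.49-fold, adjusted p = 2.62e-06). It was 0.23 lower in ΔSAP than in control cells (adjusted p = 0.00241), a call lost without ΔSAP replicate 2, ΔSAP replicate 3 or control replicate 3, with adjusted p up to 0.0117, or in a fit of only those lines (adjusted p = 0.0208). In the order control, mutB1, ΔSAP and FL, the test did not separate mutB1 from control (-0.08, adjusted p = 0.217) or ΔSAP from mutB1 (-0.14, adjusted p = 0.0285), a difference that passed with trended and robust variances (adjusted p = 0.00735).

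Lamb1, the β1 chain, had its lowest arrays in FL as well. It read 11.24, 11.28 and 11.22 in ΔSAP cells, 11.12, 11.16 and 11.14 in mutB1 cells, 10.95, 10.94 and 11.02 in FL cells and 11.28, 11.36 and 11.39 in control cells. No 2 lines overlapped, with FL lowest, and the highest ΔSAP array came close to the lowest control array. Lamb1 was 0.28 higher in ΔSAP than in FL (adjusted p = 0.000878) and FL stood 0.37 lower than control cells (adjusted p = 4.94e-05). Smaller differences passed for mutB1, 0.17 higher than FL (adjusted p = 0.00885) and 0.20 lower than control cells (adjusted p = 0.00537). With 1 array left out the first of these failed in 10 of 12 fits, with adjusted p up to 0.0378, and the second in 5 of 12 (without any 1 of the mutB1 arrays, or control replicate 2 or 3), with adjusted p up to 0.0265. The first still passed only without FL replicate 3 or control replicate 1. In fits of only the lines compared neither passed (adjusted p = 0.0324 and 0.0342), nor did ΔSAP minus FL (adjusted p = 0.0135). Arrays centred on their medians (adjusted p = 0.0132 and 0.0296) also ended both mutB1 calls. ΔSAP differed from neither control (-0.10, adjusted p = 0.114) nor mutB1 (0.10, adjusted p = 0.103) at the threshold.

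Lamc1, the γ1 chain shared by many laminins, read 11.21, 11.27 and 11.20 in ΔSAP cells, 11.34, 11.43 and 11.35 in mutB1 cells, 11.01, 11.01 and 11.04 in FL cells and 11.26, 11.25 and 11.43 in control cells. FL was again below every other array, and the control line overlapped both mutB1 and ΔSAP. It was 0.35 higher in mutB1 than in FL (adjusted p = 0.000492) and FL stood 0.29 lower than control cells (adjusted p = 0.00145). ΔSAP minus FL was 0.21 and did not pass (adjusted p = 0.0186), except without control replicate 3 (adjusted p = 0.00551) and with trended and robust variances (adjusted p = 0.00559). The difference between FL and control cells did not pass in a fit of only those lines (adjusted p = 0.0152). Over the 12 arrays r was 0.92 between Lama5 and Lamc1, 0.86 between Lama5 and Lamb1 and 0.70 between Lamb1 and Lamc1.

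Both type IV collagen chains were lowest in FL cells, as the laminin-511 chains were. Col4a1, the α1 chain, read 9.55, 9.61 and 9.59 in ΔSAP cells, 9.44, 9.47 and 9.45 in mutB1 cells, 9.19, 9.15 and 9.23 in FL cells and 9.49, 9.51 and 9.57 in control cells. FL stood below all other arrays, and ΔSAP and control overlapped. Col4a1 was 0.39 ± 0.04 higher in ΔSAP (1.31-fold, adjusted p = 6.96e-05) and 0.26 ± 0.04 higher in mutB1 (adjusted p = 0.000479) than in FL. It was 0.33 lower in FL than in control cells (adjusted p = 7.63e-05), and neither ΔSAP (0.06, adjusted p = 0.327) nor mutB1 (-0.07, adjusted p = 0.271) passed against control.

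Col4a2, the α2 chain that assembles with α1, read 9.44, 9.47 and 9.46 in ΔSAP cells, 9.15, 9.18 and 9.24 in mutB1 cells, 8.90, 8.92 and 9.01 in FL cells and 9.40, 9.34 and 9.40 in control cells. The 4 lines did not overlap, with ΔSAP highest and FL lowest. Col4a2 was 0.51 ± 0.04 higher in ΔSAP than in FL (1.42-fold, adjusted p = 1.84e-05), 0.25 ± 0.04 higher in mutB1 than in FL (adjusted p = 0.00109), and FL stood 0.43 lower than control cells (adjusted p = 1.68e-05). ΔSAP exceeded mutB1 by 0.26 (adjusted p = 0.000836), and the corresponding difference for Col4a1 was 0.13 (adjusted p = 0.0335), which passed after further quantile normalization (0.15, adjusted p = 0.00776). In a fit of only the mutB1 and FL arrays the Col4a2 difference between them did not pass (adjusted p = 0.0158). mutB1 was 0.19 lower than control cells (adjusted p = 0.0074), but that call failed in 11 of 12 fits with 1 array left out, all but the fit without FL replicate 3, with adjusted p up to 0.032, in a fit of only those lines (adjusted p = 0.0356) and with centred arrays (adjusted p = 0.0341). ΔSAP and control were neighbours that the test did not separate (0.07, adjusted p = 0.236). The 2 collagen chains correlated at r = 0.96 over the 12 arrays. FL was lower than each other line for Lama5, Lamb1, Col4a1 and Col4a2, an order noticed in these values and met by 3.98% of genes.

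The collagen genes are neighbours on opposite strands and start close together, and their windows are shown because they overlap. The Col4a1 window is chr8:11312777-11313076 on the minus strand and the Col4a2 window chr8:11312555-11312854 on the plus strand. Capitals mark the GC box (GGGCGG, or CCGCCC on the other strand) and the CCAAT box (ATTGG on the other strand).
Col4a1: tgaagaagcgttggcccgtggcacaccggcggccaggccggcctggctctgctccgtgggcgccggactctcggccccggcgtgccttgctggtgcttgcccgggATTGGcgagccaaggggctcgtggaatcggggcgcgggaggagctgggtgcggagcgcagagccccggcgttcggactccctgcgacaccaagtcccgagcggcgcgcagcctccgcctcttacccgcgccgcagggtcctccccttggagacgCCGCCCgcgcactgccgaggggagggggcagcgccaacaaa
Col4a2: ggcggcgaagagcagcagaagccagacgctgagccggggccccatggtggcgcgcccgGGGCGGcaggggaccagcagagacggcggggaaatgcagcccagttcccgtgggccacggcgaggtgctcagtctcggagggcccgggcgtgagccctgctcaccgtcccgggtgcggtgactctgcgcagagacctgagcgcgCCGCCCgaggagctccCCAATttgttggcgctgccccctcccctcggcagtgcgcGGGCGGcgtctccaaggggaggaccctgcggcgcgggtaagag
The start bases of these windows are 21 bases apart and the windows share 78 bases, among them a GC box that stands in capitals in both. The Col4a1 window held 1 GC box and 1 CCAAT box, and the Col4a2 window 3 and 1. Among the laminin chains of the 9 genes, Lama5 had the lowest FL value relative to control. Its window at chr2:180225810-180226109 on the minus strand held 4 GC boxes.
Lama5: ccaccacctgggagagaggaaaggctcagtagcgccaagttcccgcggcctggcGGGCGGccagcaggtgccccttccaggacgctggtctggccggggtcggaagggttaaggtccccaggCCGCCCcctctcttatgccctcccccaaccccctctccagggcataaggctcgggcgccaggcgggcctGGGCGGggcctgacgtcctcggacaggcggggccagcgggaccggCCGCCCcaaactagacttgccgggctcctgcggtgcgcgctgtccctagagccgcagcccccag
Over all 7 windows of the 6 genes, 5 held a GC box and 4 a CCAAT box, against 35.7% and 37.4% of all 32851 windows of 300 bases. The bases of the Lama5 window were 72.7% G or C and those of the collagen windows 74.0% and 73.7%, against 59.3% in each Lamb3 window and a median of 52.7% over all windows. None of the 7 held a CArG box (1.63% of all windows), an AP-1 match (7.81%) or a TATA match (13.6%), and 2 held CATTCC (14.7%).

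Nid1, which bridges laminin and type IV collagen, read 6.60, 6.71 and 6.81 in ΔSAP cells, 6.59, 6.54 and 6.71 in mutB1 cells, 6.63, 6.63 and 6.70 in FL cells and 6.48, 6.49 and 6.42 in control cells. The construct lines overlapped one another and lay above every control array. Nid1 minus control was 0.24 in ΔSAP (adjusted p = 0.0152), 0.15 in mutB1 (adjusted p = 0.122) and 0.19 in FL (adjusted p = 0.0411), none of which passed. The first passed without ΔSAP replicate 1 (adjusted p = 0.00688). The intervals of ΔSAP minus FL, from -0.08 to 0.19, and of mutB1 minus FL, from -0.17 to 0.10, included 0.

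Counted over the set, 5 of the 9 genes were higher in ΔSAP than in FL, where 8.34% of all genes were higher, and none was lower (8.35% of genes). None of the 5 reached 2-fold (0.697% of genes in either direction). In mutB1 6 were higher than in FL (12.8% of genes) and 2 lower (12.1%), and 2 reached 2-fold (2.16%), Lama4 upward and Lamb3 downward. In ΔSAP 3 were higher than in mutB1 (9.99%) and 1 lower (11.5%), and 2 reached 2-fold (2.04%). These comparisons share arrays, so their counts are not independent, and the genes were chosen with earlier results of these data known. Against control cells, 2 were higher (9.37%) and 1 lower (11.7%) in ΔSAP, with Lamb3 past 2-fold (1.79%). In mutB1 1 was higher (8.29%) and 2 lower (10.4%) than in control cells, with Lama4 past 2-fold (1.71%). In FL 2 were higher (12.5%) and 5 lower (14.9%), with none past 2-fold (2.2%).

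The median difference over the 9 genes was 0.28 for ΔSAP minus FL and 0.25 for mutB1 minus FL, against -0.03 and 0.02 over all genes. It was 0.07 for ΔSAP, -0.07 for mutB1 and -0.29 for FL against control, where the medians over all genes were -0.06, -0.01 and -0.03.

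**Figure D2:**
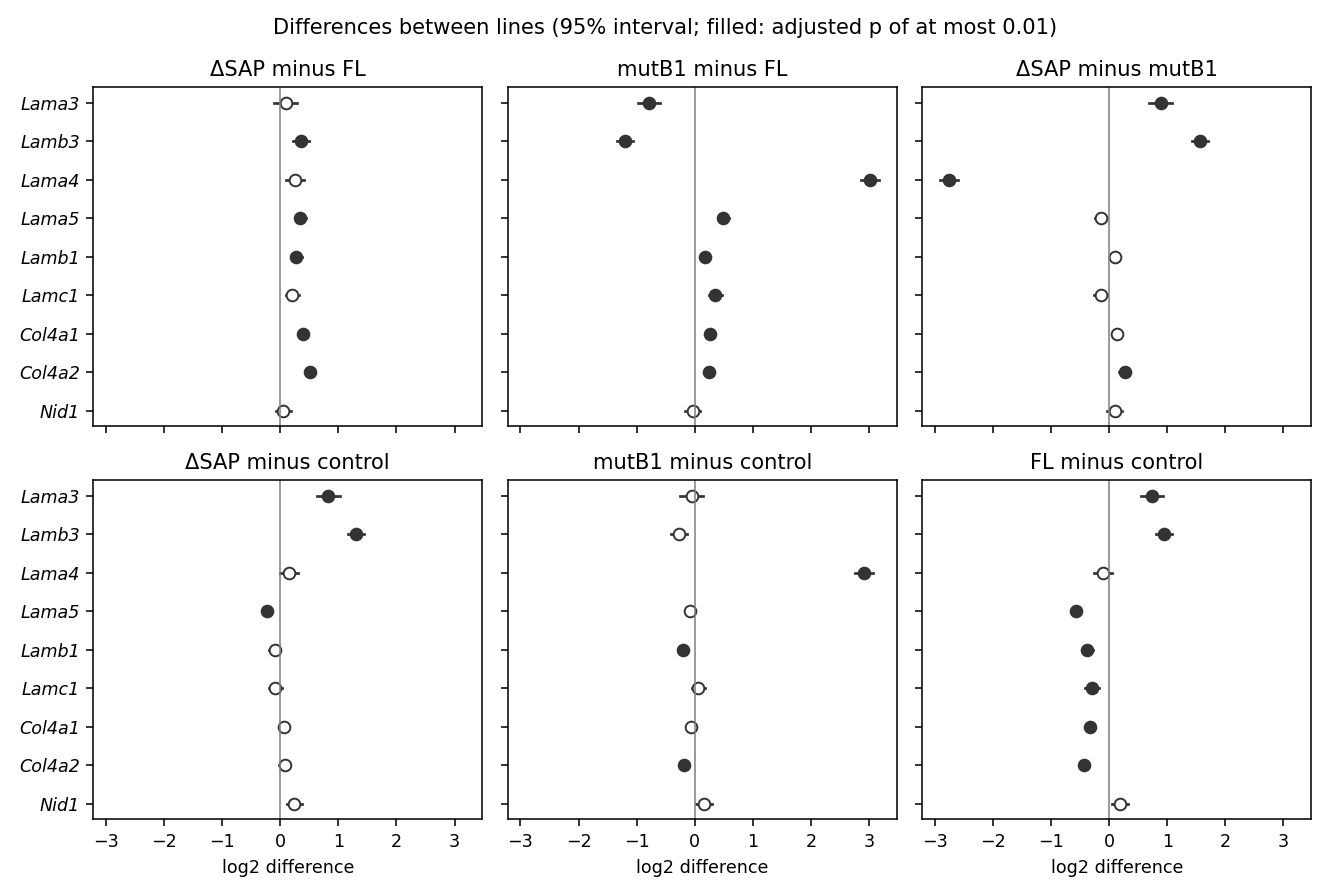
Difference in log2 RMA value (x axis) of each gene (y axis) for the 6 pairs of lines, with the 95% interval; filled points passed an adjusted p of 0.01. Lama3 and Lamb3 lie left of 0 and Lama4 far right of it in mutB1 minus FL, and the laminin-511 and collagen chains lie left of 0 in FL minus control.

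Set side by side, the laminin-332 chains, Lama4 and the collagen chains ranked the lines differently. In mutB1 minus FL the values were -0.79 for Lama3, -1.21 for Lamb3, 3.02 for Lama4, 0.26 for Col4a1 and 0.25 for Col4a2. In FL minus control they were 0.73, 0.94, -0.10, -0.33 and -0.43 in the same gene order. Thus the transcripts of both laminin-332 chains were higher and those of both type IV collagen chains lower in FL than in control cells, with no Lama4 difference past the threshold. ΔSAP minus control gave 0.83, 1.30, 0.16, 0.06 and 0.07, so the laminin-332 transcripts were higher there without a collagen difference that passed. Over the 12 arrays Lamb3 had r = -0.65 with Lama4 and -0.13 with Col4a1, and Lama4 had r = 0.11 with Col4a1. The mutB1 line had its low Lama3 and the lowest Lamb3 of the 4 lines together with high Lama4, while control cells had low Lama3 with low Lama4.

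**Figure D3:**
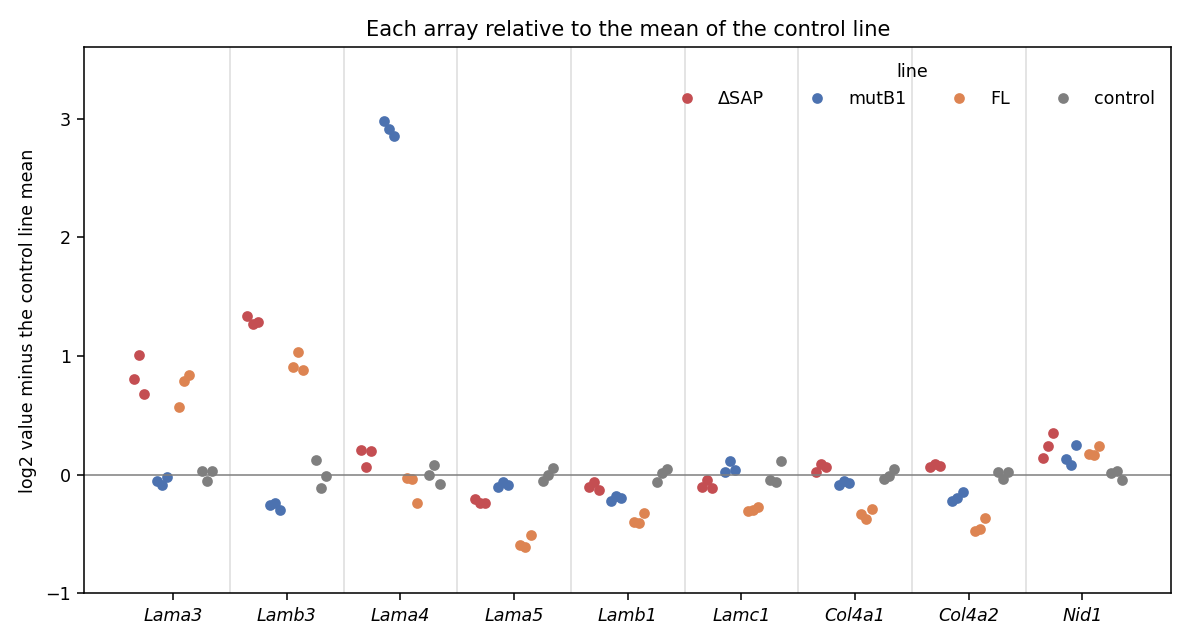
Log2 value of each array minus the mean of the control line (y axis) for the 9 genes (x axis); each point is 1 array, coloured by line. The ΔSAP and FL points of Lama3 and Lamb3 lie above 0, the mutB1 points of Lama4 lie near 2.91, and the FL points of Lama5, Lamb1, Lamc1, Col4a1 and Col4a2 lie below all others.

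Genes whose profile over the 12 arrays was most like these were ranked by Pearson r among genes that passed with at least 2-fold in some comparison and had a mean of at least 6. For Lamb3 (851 candidates) the highest were Tmprss11e, a transmembrane serine protease (r = 0.99), Ank2, Acsbg1, Macc1 and the tight junction protein Cldn9, all at 0.99. Cldn9 averaged 10.39 in ΔSAP, 6.64 in mutB1, 9.44 in FL and 7.55 in control cells, the same order of lines as Lamb3. For Lama4 (852 candidates) they were Itih2 (r = 0.99), Kank4 (0.99), alkaline phosphatase Alpl (0.97), Cxxc4 (0.97) and Boc (0.97). Kank4 averaged 5.23 in ΔSAP, 9.03 in mutB1, 5.54 in FL and 5.51 in control cells. For Col4a1 they were Arrdc3 (r = 0.98), Cyp39a1 (0.97), the carboxypeptidase Cpm (0.97), Camsap3 (0.96) and Mboat2 (0.95), and Cpm averaged 7.72 in ΔSAP, 6.52 in mutB1, 4.71 in FL and 7.57 in control cells. Likeness over 4 lines says only that levels ran in parallel.

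The other lists are read against the shares of all genes given above, in ΔSAP 8.34% higher and 8.35% lower than in FL, and in mutB1 12.8% higher and 12.1% lower than in FL. Of 7 measured other laminin chains and netrins of 8 listed, 1 was higher and none lower in ΔSAP than in FL, and 2 were higher and none lower in mutB1 than in FL. Against control cells 1 was higher and 2 lower in ΔSAP (9.37% and 11.7% of all genes). In mutB1 2 were lower than in control cells (10.4%), and in FL 2 were lower (14.9%). Ntn4, a laminin-binding netrin, was 0.43 higher in ΔSAP than in FL and 0.49 higher than in control cells. Lamb2, the β2 chain, averaged 9.64 in ΔSAP, 9.93 in mutB1, 9.54 in FL and 10.12 in control cells. Ntn1, an axon guidance netrin, averaged 8.75 in ΔSAP, 9.17 in mutB1, 8.62 in FL and 9.76 in control cells. Both were highest in control cells, so the mutB1 differences of 0.39 and 0.55 from FL went with differences of -0.20 and -0.59 from control cells.

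Of 8 other basement membrane collagens, 2 were higher and none lower than in FL in each of ΔSAP and mutB1. Col4a5, a further type IV chain, was 0.45 higher in ΔSAP and 0.27 higher in mutB1 than in FL, and FL was itself 0.36 above control cells. Col18a1, the source of endostatin, was 0.25 and 0.33 higher than in FL, and FL was 0.42 lower than control cells.

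Of 16 other basement membrane glycoproteins and proteoglycans, 4 were higher and none lower in ΔSAP than in FL (8.34% and 8.35% of all genes), and 6 were higher and 1 lower in mutB1 than in FL (12.8% and 12.1%). The median difference was 0.06 and 0.12. Fbln1, a fibulin that binds laminin and nidogen, averaged 8.06 ± 0.03 in ΔSAP, 9.60 ± 0.04 in mutB1, 7.98 ± 0.07 in FL and 6.99 ± 0.05 in control cells (SD, n = 3 each), and was 1.61 higher in mutB1 than in FL (adjusted p = 4.41e-09). Npnt, an integrin α8β1 ligand, was 0.94 higher in ΔSAP and 0.85 higher in mutB1 than in FL, and Papln was 0.55 and 0.98 higher. Against control cells these were lower in every construct line, Npnt at -0.32 in ΔSAP, -0.41 in mutB1 and -1.26 in FL, and Papln at -0.997, -0.56 and -1.54. Agrn, a heparan sulphate proteoglycan, was 0.19 higher in ΔSAP, and the collagen-binding Sparc 0.55 higher in mutB1 than in FL and 0.21 higher than in control cells.

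Receptors for laminin and type IV collagen changed in both directions in mutB1. Of 15, 8 were higher and none lower in ΔSAP than in FL (8.34% and 8.35% of all genes), and 6 were higher and 5 lower in mutB1 than in FL (12.8% and 12.1%). Against control cells 3 were higher and 8 lower in FL (12.5% and 14.9%). Itgb4, the β4 integrin chain of the laminin-332 receptor, averaged 10.55 ± 0.04 in ΔSAP, 9.23 ± 0.05 in mutB1, 9.79 ± 0.05 in FL and 10.49 ± 0.07 in control cells (SD, n = 3 each). It was 0.76 higher in ΔSAP than in FL (adjusted p = 5.70e-06), 0.57 lower in mutB1 than in FL (adjusted p = 1.41e-05), and FL stood 0.70 lower than control cells (adjusted p = 2.29e-06). Unlike Lama3 and Lamb3, Itgb4 was thus lower in FL than in control cells. Bcam, a receptor of the α5 chain, was 1.09 lower in mutB1 than in FL, and Mcam, a receptor of the α4 chain, was 0.99 higher in mutB1 and 0.60 higher in ΔSAP than in FL. Against control cells Bcam was 1.74 lower and Mcam 0.59 higher in mutB1. Among collagen-binding integrins, Itga2 was 0.73 lower and Itga1 0.71 higher in mutB1 than in FL. Set against control cells, Itga2 was 0.37 higher in mutB1 and 1.10 higher in FL, and Itga1 was -0.18 in mutB1, which did not pass (adjusted p = 0.0128), and 0.89 lower in FL.

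The hemidesmosome list shares Itga6, Itgb4 and Cd151 with the receptors and Col17a1 with the collagens. Of its 6 genes, 2 were higher in ΔSAP than in FL (Itgb4 and, at 0.31, the tetraspanin Cd151), and in mutB1 Cd151 was 0.55 higher while Itgb4 was lower. Cd151 was 0.45 lower in FL than in control cells and passed in neither other line against control. Genes of collagen synthesis and crosslinking, 15 measured of 16, had 1 higher and 5 lower in ΔSAP than in FL (8.34% and 8.35% of all genes). The prolyl hydroxylase P4ha2 was 0.79 lower there and the collagen chaperone Serpinh1 0.49 lower, while the transcripts of both collagen IV chains were higher. In FL these 2 genes were 0.27 and 0.47 higher than in control cells. In mutB1 2 were higher and 4 lower than in FL, with the lysyl hydroxylase Plod1 0.32 higher and the oxidase Loxl4 0.46 lower. Against control cells neither passed in mutB1, and in FL Plod1 was 0.25 lower and Loxl4 0.35 higher.

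The list of 14 proteases and processing enzymes includes the inhibitors Timp1, Timp2 and Timp3. Of the 14, 3 were higher and 2 lower in ΔSAP than in FL, and 5 higher and 3 lower in mutB1 than in FL. Timp2 is among the 3 higher in ΔSAP (0.16) and among the 3 lower in mutB1 (-0.12). Mmp9, a gelatinase that cleaves type IV collagen, was 0.65 lower in ΔSAP and 0.74 higher in mutB1 than in FL, and Mmp19 was 0.62 lower and 1.16 higher. Both were also higher in mutB1 than in control cells, by 1.31 and 0.81. ΔSAP minus mutB1 was -1.39 for Mmp9 (adjusted p = 6.30e-09) and -1.78 for Mmp19 (adjusted p = 1.36e-07). The Mmp19 mean in ΔSAP cells, 5.965, was low, while Mmp9 was low in no line. The serine protease Htra1 was 0.76 lower in mutB1 than in FL, and in FL 1.03 higher than in control cells. Of 13 interstitial matrix genes, which lie outside basement membranes, 2 were higher and 1 lower in ΔSAP than in FL. Fibronectin Fn1 was 0.28 higher there and decorin Dcn 0.49 lower, with a low Dcn mean of 5.88 in ΔSAP. In mutB1 2 were higher than in FL, Col6a1 by 0.80 and Col5a1 by 0.45. These 2 were 0.83 and 0.28 lower in FL than in control cells and did not pass between mutB1 and control.

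**Figure D4:**
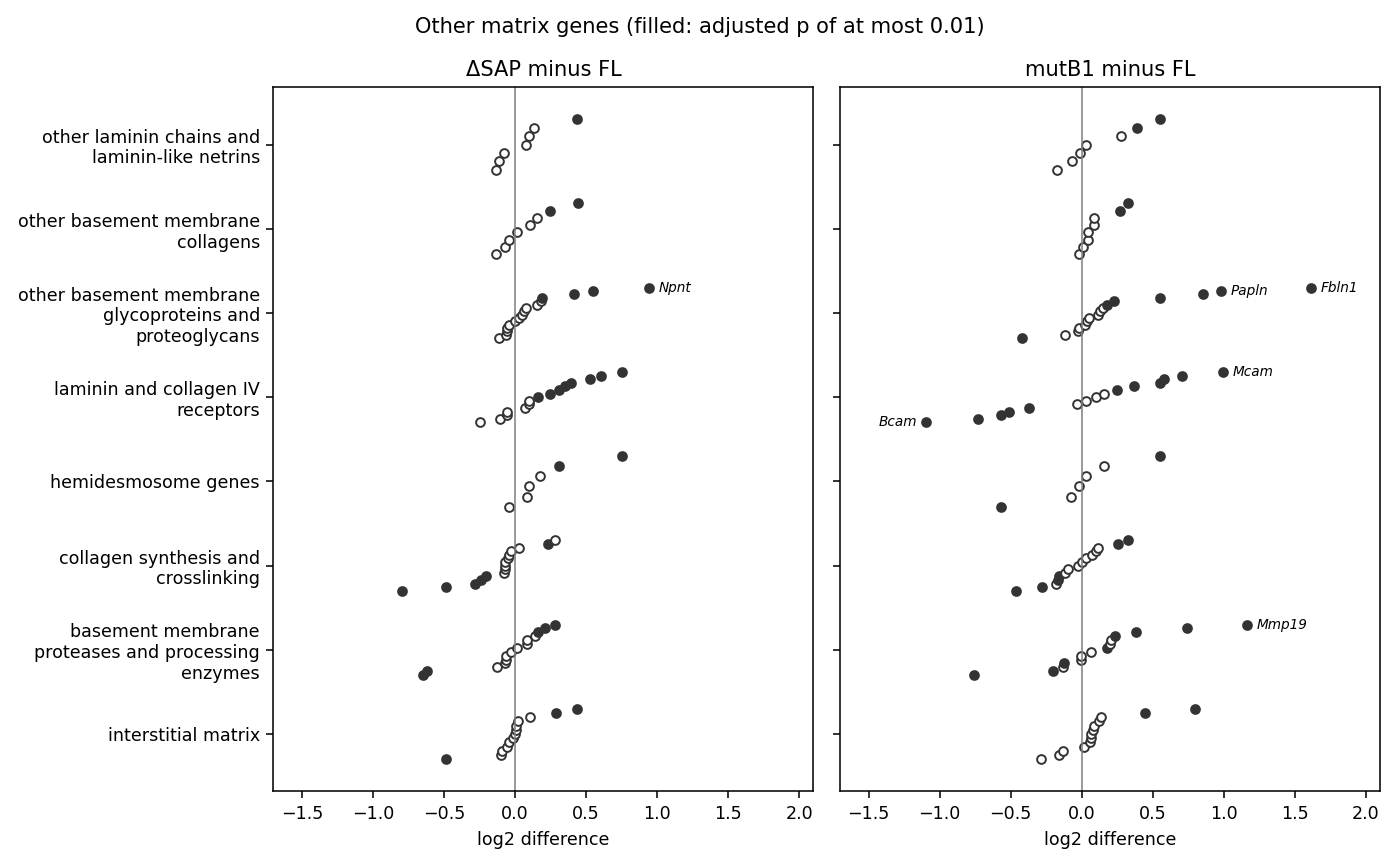
Difference in log2 RMA value (x axis) of the genes of 8 lists (y axis) for ΔSAP minus FL and mutB1 minus FL; each point is 1 gene and filled points passed an adjusted p of 0.01. Receptors lie on both sides of 0 in mutB1 minus FL, with Bcam at -1.09 and Mcam at 0.99, and Fbln1 at 1.61 has the largest difference drawn.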

How the data were processed

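The deposited values are log2 intensities of probe sets, which the authors computed by RMA (background correction, quantile normalization and summarization of probes) with the affy package of Bioconductor, per the series design text; the submitters' processing notes name R 2.10.0. Neither the genome build nor the probe set definition is given in the sources used here. Of 34760 probe sets, 21640 had 1 gene symbol in GEO's platform annotation, 1321 several and 11799 none. Symbols were updated through Entrez identifiers with RefSeq (21553 matched), and a gene is its brightest probe set. Differences were computed with limma 3.58.1 (R 4.3.3) in 1 fit of the 12 arrays, adjusting p by Benjamini-Hochberg over all probe sets, as first line minus second, with SE. The code was tested on simulated arrays. The number of arrays limits the precision.

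The members and lists were chosen with earlier results of these data known. All 9 members are named. Of each list at most 4 genes a comparison were eligible, those with the largest change among genes that passed, and the 5 genes most like Lamb3, Lama4 and Col4a1. Some genes outside this rule, such as Krt8 and Krt18, are named because they went the other way. Marker lists covered epithelial, basal, endothelial, pericyte, fibroblast, leukocyte and adipocyte genes. Alternatives covered centring, normalization, the mean filter, array weights, the variance model, the arrays fitted, the replicate block and each array left out.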

Additional observations from a re-analysis of the deposited data

Results flagged for a closer look

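For 4 genes the effect of the ΔSAP line against control cells differed from that of the mutB1 line, tested as the ΔSAP minus mutB1 contrast in limma. Lamb3 was 1.30 above control in ΔSAP and -0.27 from it in mutB1, a difference of 1.56 (adjusted p = 3.81e-08). Lama3 stood at 0.83 in ΔSAP and -0.05 in mutB1, a difference of 0.88 (adjusted p = 4.07e-05). Lama4 stood at 0.16 in ΔSAP and 2.91 in mutB1, a difference of -2.76 (adjusted p = 1.76e-09). Col4a2 stood at 0.07 in ΔSAP and -0.19 in mutB1, a difference of 0.26 (adjusted p = 0.000836). In each case all 3 arrays of 1 line lay beyond all 3 of the other. That adds no support, because these 4 genes are the ones that passed this contrast. Arrays of ΔSAP and mutB1 were also apart for Lama5, Lamb1, Lamc1 and Col4a1, which did not pass it. Lines of 3 arrays were not tested for single deviating arrays.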

How the results depend on the processing

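Most changes of single genes were kept under other settings. The first count below includes dropping the minimum mean, which could change no call because all 9 means were at least 4. It also includes averaging a gene's probe sets, which left these values unaltered because each gene had 1. The fits of only the lines compared, the replicate block, the mean filters and the variance model leave each difference unaltered. Those settings could change a call but not a direction. Of 540 values of a gene's difference under other settings, 515 kept their direction and side of the threshold, 17 lost the call, 6 gained one and 2 changed sign. With 1 array left out, 612 of 648 values were kept, 32 lost the call, 3 gained one and 1 changed sign. Leaving out an array of a line outside the comparison likewise could change a call but not a direction. The changes of sign concerned Nid1, which passed no comparison: mutB1 minus FL was 0.0103 with centred arrays and 0.0088 after further quantile normalization, and ΔSAP minus FL ranged from -0.0003 to 0.1058 with 1 array left out. The number of the 9 genes that passed for mutB1 minus control, 3, became 1 with centred arrays, 1 with only the arrays of the lines compared and 1 with the replicate block. It ranged from 1 to 3 with 1 array left out, and was 1 without any 1 mutB1 array or control replicate 3. For ΔSAP minus FL the 5 became 3 with only the arrays of the lines compared. That fit uses fewer arrays, and over all probe sets it called 1711 for ΔSAP minus FL (3959 with all arrays), 2892 for ΔSAP minus mutB1 (5168), 2614 for mutB1 minus control (4392) and 2936 for ΔSAP minus control (5107). Adding the 2-fold rule left 0 for ΔSAP minus FL, 2 for mutB1 minus FL, 2 for ΔSAP minus mutB1, 0 for FL minus control, 1 for mutB1 minus control and 1 for ΔSAP minus control. With 1 array left out the counts were 4 to 6 for ΔSAP minus FL, 7 to 8 for mutB1 minus FL, 4 for ΔSAP minus mutB1, 7 for FL minus control and 2 to 4 for ΔSAP minus control. A minimum mean of 6 removed Lama4, whose mean over the 12 arrays is lower. The cause of the other changes was not tested. Lines share replicate numbers, but same-numbered arrays did not deviate together (r from -0.20 to 0.17, over 0.1 in 2 of 18 pairs). With the replicate block, mutB1 minus FL kept 7 of 8 calls, ending that of Lamb1 (adjusted p = 0.0154), and called 5377 probe sets, against 6126 without it. RMA values near the low end limit what can be read of Lama3 and Lama4 in the lines where they are low.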
